A study of Rattus norvegicus with 12 samples.

Results

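The genes described here code for the machinery that releases neurotransmitter from synaptic vesicles. Members were taken by gene symbol from the array annotation: a probe set counted when it named exactly 1 gene and the symbol was Syt, Stx, Vamp, Cplx, Syn, Sv2, Snap, Stxbp, Rab3, Rims or Unc13 followed by a number, a letter, or a number and a letter. This gave 76 genes (113 probe sets) out of the 14217 genes of the array, and each gene was read at its brightest probe set, the one with the highest mean over the 12 arrays. The letters of the rule also took 14 genes that belong to other families: Rab30 to Rab39a, the intermediate filament genes Synm and Sync, and Snap91, which codes for the clathrin adaptor AP180. The remaining 62 genes are called the release families below, and the 14 are given apart. Symbols in which a letter comes before the number (Syne1, Snapc1, Synj1, Sytl1) were not taken.

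The arrays measured forebrain total RNA from single animals, all male Long Evans rats, 6 weeks of age, that had each lived alone in a cage for several days. The control group (n = 6) is labelled only as the control condition, and the exposed animals (n = 6) spent 3 hours in an unfamiliar environment that held objects varied in shape and colour. No transgene, lesion or drug is named for either group. The question put by the labels is which genes become more abundant after the exposure.

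A synaptic vesicle fuses when a SNARE protein in its own membrane (a Vamp, or synaptobrevin) zips up with 2 SNARE proteins of the plasma membrane, a syntaxin (Stx) and Snap25. Syntaxin-binding proteins and Unc13 proteins prepare this complex, complexins hold it in a ready state, and synaptotagmins (Syt) bind calcium and trigger fusion. Rab3 proteins and RIMs (Rims genes) tether vesicles at the active zone, synapsins (Syn) hold the reserve pool, and Sv2 proteins are carried in the vesicle membrane. All forebrain neurons use this machinery, with different family members in different cell types, and some members (Vamp3, Vamp8, Snap23, Snap29 and the syntaxins of endosomes and the Golgi) serve membrane traffic in most cells.

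Few genes of the release machinery passed in these forebrains after 3 hours, as few genes of the whole array did, while the exposure itself was clearly seen. Fos, an immediate early gene, lay between 185 and 386 intensity units in controls and between 1718 and 2279 in exposed animals, and Egr1, another such gene, lay between 3516 and 3989 against 8587 to 9583. Of the 62 release family genes, 0 rose and 1 fell at an adjusted p under 0.05 in limma (Benjamini-Hochberg over 31042 probe sets). Among all 14217 genes, 3.46% passed by the same rule: 2.62% rose and 0.844% fell (2.56% of the 31042 probe sets passed). The gene that fell was Rab3d, at 1.24-fold lower. At an unadjusted p under 0.05 in limma there were 4 of 62 (6.45%; 1 higher, 3 lower), against 15.9% of all genes. The median SE of a change was 0.059 in the families and 0.048 in all genes above the floor described below. A larger SE makes a small p-value rarer. Whether the families differ from all genes was not tested.

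Members were judged against a fixed background level: values under an intensity of 53.8, the 20th percentile of all values, were raised to it before the log2 was taken. Of the 62 genes only Stx11 was at this floor on all 12 arrays, which leaves 61 with a measured change. Their changes, as exposed minus control on the log2 scale, ran from -0.31 to 0.08, with 23 above 0 and 38 below, and 51 of 61 were smaller than 0.1 in size. The median change was -0.02, against -0.01 for the 12673 genes of the array that were above the floor somewhere. The median size of change, sign aside, was 0.04 in the families and 0.05 in all genes. The highest change in the families was 0.08, and 13.5% of all genes lay above it. That limit was taken from the families themselves, so no member could exceed it.

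**Figure D1:**
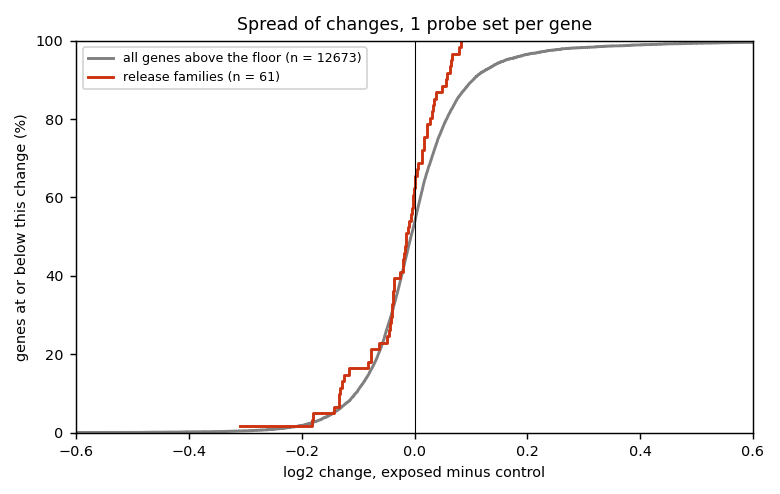
Cumulative share of genes (vertical axis, percent) at or below each log2 change, exposed minus control (horizontal axis), for the 61 release family genes above the floor (red) and all 12673 genes above it (grey). The red curve ends at 0.08, the highest family value, and its lowest step, at -0.31, is Rab3d. Of all genes, 13.5% lie to the right of that end, a limit taken from the families themselves.

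How large a change the data could still hide was read from the 95% intervals of the limma fit. For 54 of the 61 genes (88.5%) the interval lay wholly within 0.32 of 0 on the log2 scale, in either direction, against 90.5% of all genes above the floor. This limit was chosen after the values had been seen. The 7 genes whose interval reached past it were Rab3d, Cplx2, Syt6, Syt7, Syt11, Syt12 and Syt16. The median interval reached 0.13 to either side of the estimate. In bulk forebrain RNA, fewer cells of a type and less RNA per cell cannot be told apart, nor can opposite changes in different regions be seen.

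**Figure D2:**
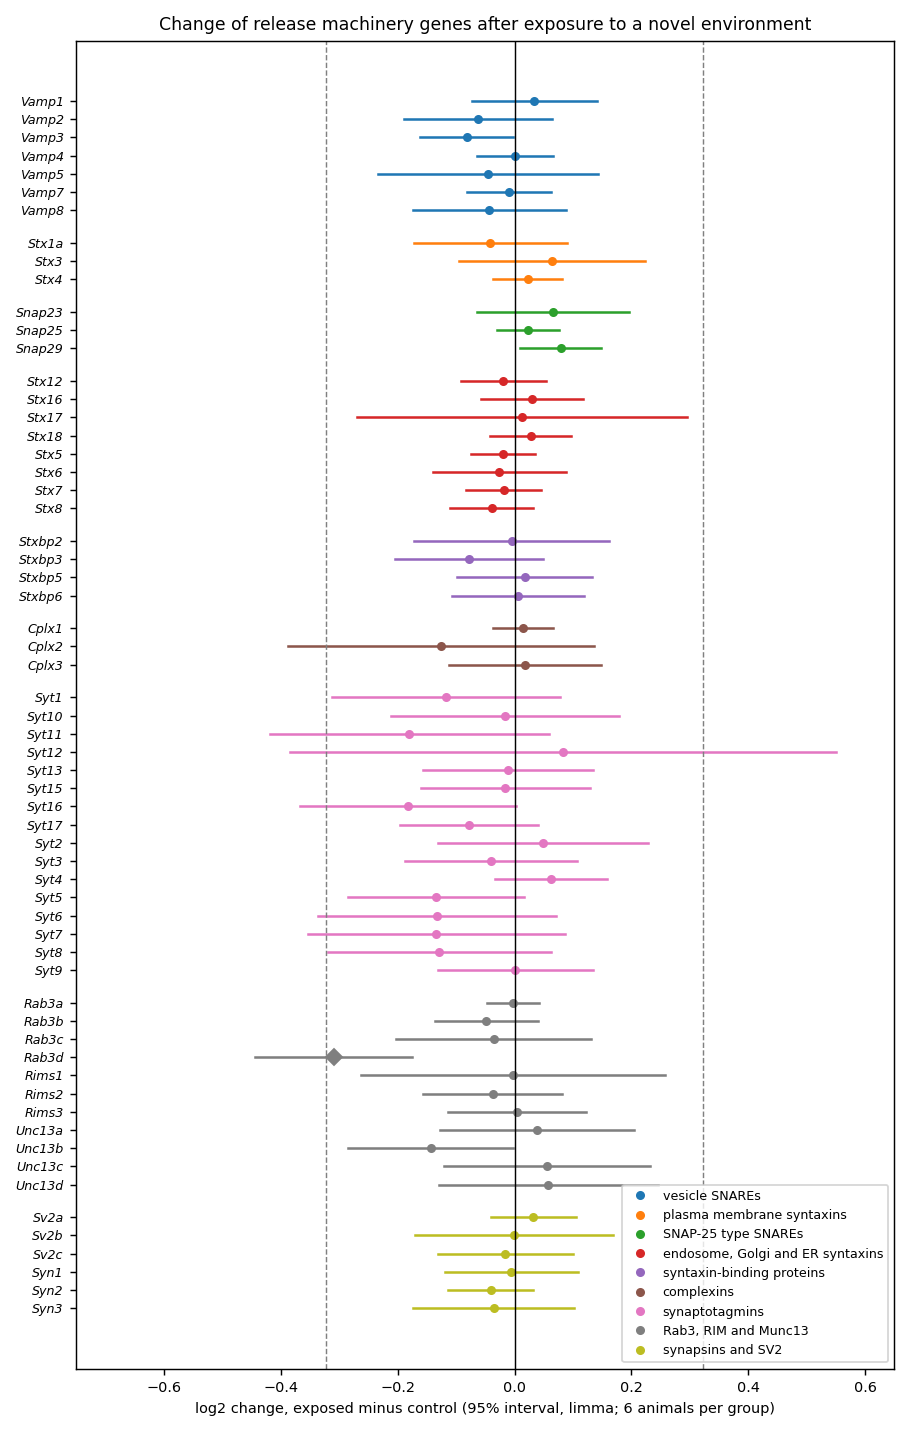
Log2 change, exposed minus control (horizontal axis), of each of the 61 release family genes above the floor, with its 95% interval from limma (6 animals per group), coloured by role; dashed lines mark a log2 change of 0.32 in either direction. All intervals but those of Rab3d, Vamp3, Unc13b and Snap29 include 0, and Rab3d (diamond) alone passed the adjusted test.

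Among the small GTPases of the Rab3 group, Rab3d, better known from secretory granules outside the brain, was the member that fell. Its intensity in controls was 355 at the lowest, 362 at the median and 437 at the highest, and in exposed animals 284, 300 and 329. All 6 exposed animals lay below all 6 controls, a separation that 0.9% of all genes showed in this direction. The change was -0.31 ± 0.06 (SE, 6 animals per group; 95% interval -0.44 to -0.17; adjusted p = 0.0229 in limma). The exact two-sided permutation test gave p = 0.0022, unadjusted, the smallest it can give. The call was kept in 21 of 27 alternative settings. Among the settings in which it was lost were a fit with a covariate for RNA quality (-0.26, adjusted p = 0.0990) and fits without control 3 (0.0575), without exposed 2 (0.0538) and without exposed 4 (0.0533). It was also lost without control 4 and exposed 3 and 5 together (-0.32, adjusted p = 0.0999).

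Some other measures had different means in control and exposed animals, with ranges that overlap. The 3 prime minus 5 prime log2 difference of the control probe sets for Gapdh and beta-actin, a sign of RNA quality, was 0.39 ± 0.05 in controls and 0.45 ± 0.07 in exposed animals (SD, n = 6; exact permutation p = 0.0823). The mean log2 level over 12 endothelial and mural cell markers ranged from 9.10 to 9.21 in controls and from 9.01 to 9.13 in exposed animals. Of the 12 changes 11 lay below 0, as did those of 6792 of the 12673 genes above the floor. In limma 1 of 12 fell at an adjusted p under 0.05, against 0.844% of all genes. None of these 12 markers was at the floor on all arrays. The part of these cells in the Rab3d result was not tested.

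The neuronal relatives of Rab3d gave other values. Rab3a, the main Rab3 protein of synaptic vesicles, had intensities of 7787, 8007 and 8278 (lowest, median, highest) in controls and 7770, 8059 and 8212 in exposed animals. The ranges coincide, and the change was 0.00 ± 0.02 (95% interval -0.05 to 0.04), the narrowest interval of the release families. Rab3b changed by -0.05 ± 0.04 and Rab3c by -0.04 ± 0.08, and neither passed. The groups overlap in all 3 genes.

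**Figure D3:**
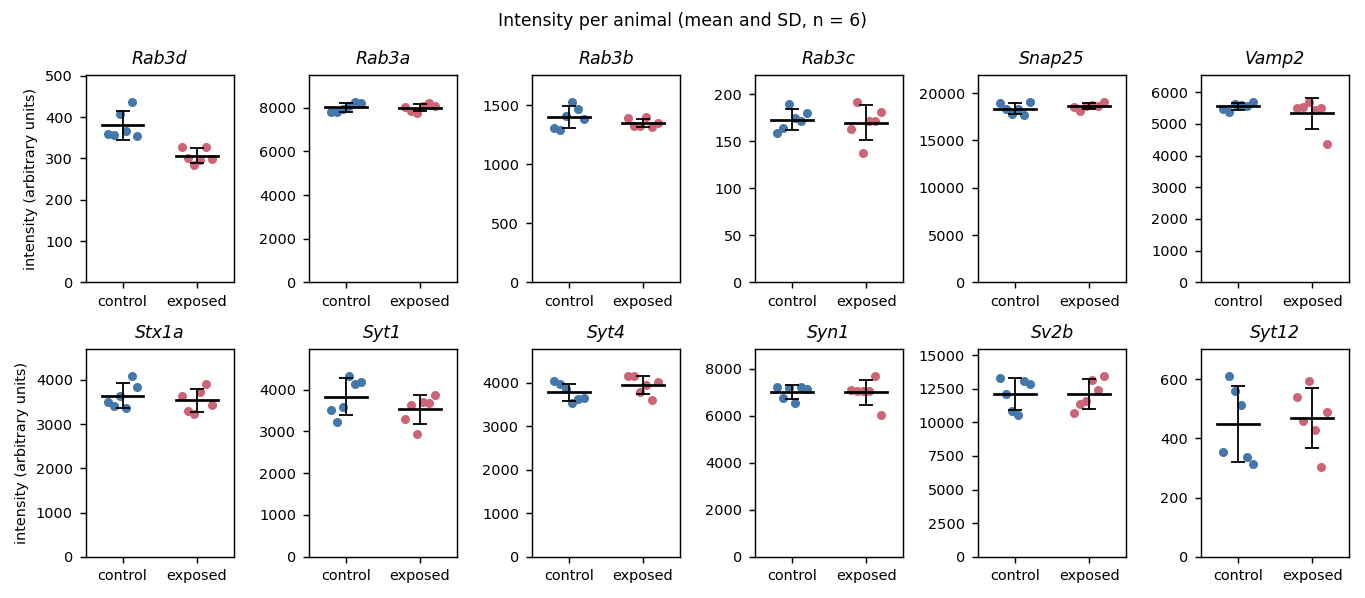
Intensity (vertical axes, arbitrary linear units, from 0) of 12 release genes at the brightest probe set; each point is 1 animal, bars give the mean and SD (n = 6 per group), and animals run from number 1 to 6 within a group. The exposed animals of Rab3d all lie below the controls (284 to 329 against 355 to 437), while the groups overlap in the other 11 panels.

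Priming and tethering factors at the active zone gave 0 genes that passed. Rims1, a scaffold that binds Rab3 and calcium channels, ranged from 798 to 1009 in controls and from 670 to 1179 in exposed animals, a wider spread in the exposed group with a change of 0.00 ± 0.12. Rims2 changed by -0.04 ± 0.05 and Rims3 by 0.00 ± 0.05. Unc13a, the main Munc13 primer of excitatory synapses, had medians of 322 and 344 and a change of 0.04 ± 0.08. Unc13b, a close relative, went from 229, 258 and 282 in controls to 215, 225 and 253 in exposed animals, with 4 of 6 below every control. Its change of -0.14 ± 0.06 did not pass (adjusted p = 0.363 in limma; exact permutation p = 0.0519). Unc13c and Unc13d each changed by 0.06 ± 0.08.

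Of the vesicle SNAREs, 0 of 7 passed. Vamp2, the main synaptobrevin of the forebrain, lay between 5364 and 5697 in controls. In exposed animals it lay between 5440 and 5686 in 5 animals and at 4355 in exposed 6, so 1 animal sets the lower mean of that group. Its change was -0.06 ± 0.06. Vamp1, the synaptobrevin of fast and caudal synapses, had medians of 3913 and 4007 and a change of 0.03 ± 0.05. Vamp3, or cellubrevin, which acts in recycling endosomes of most cells, had medians of 2059 and 1978 with 3 of 6 exposed animals below every control (-0.08 ± 0.04, adjusted p = 0.358 in limma). Vamp4, Vamp5, Vamp7 and Vamp8 ran from -0.05 to 0.00.

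The SNAREs of the target membrane were as steady. Snap25 had intensities of 17695, 18327 and 19040 in controls and 18144, 18639 and 19102 in exposed animals, with a change of 0.02 ± 0.02 and a 95% interval of -0.03 to 0.08. Stx1a, its syntaxin partner, had medians of 3575 and 3534 and a change of -0.04 ± 0.06. Stx3 and Stx4 changed by 0.06 ± 0.07 and 0.02 ± 0.03. Snap29, a SNARE of autophagosomes and endosomes, had the highest change of the 3 Snap genes at the brightest probe set. It went from 562, 589 and 598 to 595, 605 and 676, with 5 of 6 exposed animals above every control. Its change of 0.08 ± 0.03 did not pass in limma (adjusted p = 0.293), and the exact permutation test gave an unadjusted p = 0.00433, for a gene that is named here because its p was small. The highest value is that of exposed 5. The 8 syntaxins of endosomes, the Golgi and the endoplasmic reticulum (Stx5, Stx6, Stx7, Stx8, Stx12, Stx16, Stx17, Stx18) had a median change of -0.02 and ran from -0.04 to 0.03.

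Regulators that bind the SNARE complex were also within their spread. Cplx1, the complexin of fast synapses, had medians of 10271 and 10494 and a change of 0.01 ± 0.02. Cplx2, the complexin of many cortical principal neurons, ranged from 1158 to 1480 in controls and from 888 to 1479 in exposed animals. Its groups overlap, and its interval was wide (-0.13 ± 0.12, 95% interval -0.39 to 0.14). Cplx3 changed by 0.02 ± 0.06. Of the syntaxin-binding proteins, Stxbp2 and Stxbp3 (Munc18 forms outside the synapse) changed by -0.01 ± 0.08 and -0.08 ± 0.06, and Stxbp5 (tomosyn) and Stxbp6 (amisyn), both of which compete with Vamp for syntaxin, by 0.02 ± 0.05 and 0.01 ± 0.05.

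Synaptotagmins had the widest intervals of the 9 role groups, with a median reach of 0.18 to either side of the estimate. Of 16 genes 0 passed in limma, and 0 had an unadjusted p under 0.05. The median change was -0.06 (-0.01 in all genes), with 12 below 0 and 4 above. Syt1, the fast calcium sensor of forebrain synapses, had intensities of 3225, 3869 and 4328 in controls and 2946, 3659 and 3875 in exposed animals. These ranges overlap for 5 of 6 exposed animals, and the change was -0.12 ± 0.09 (95% interval -0.31 to 0.08). Syt4, a synaptotagmin whose transcript is known to be induced by strong neuronal activity, had intensities of 3545, 3752 and 4034 in controls and 3613, 3987 and 4157 in exposed animals, with 2 of 6 above every control. Its change of 0.06 ± 0.04 did not pass (adjusted p = 0.659), and the upper end of its interval, 0.16, is far below the changes of Fos (2.77) and Egr1 (1.27).

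The lowest synaptotagmin values came from Syt16 (-0.18 ± 0.08, adjusted p = 0.387), Syt11 (-0.18 ± 0.11, adjusted p = 0.571), Syt5 (-0.13 ± 0.07, adjusted p = 0.458), Syt7 (-0.13 ± 0.10), Syt6 (-0.13 ± 0.09) and Syt8 (-0.13 ± 0.09). Syt7 is the slow, high-affinity calcium sensor, and Syt11 is a form that does not bind calcium. In each of these 6 genes the groups overlap. For Syt5 the exact permutation test gave p = 0.0498, unadjusted, with 3 of 6 exposed animals below every control and exposed 3 far below the rest at 1610. Syt12 varied most of the 61 genes, by 2.02-fold over the 12 animals, from 313 to 610 in controls and from 303 to 592 in exposed animals. Its change of 0.08 ± 0.21 therefore leaves an interval from -0.38 to 0.55. At the other end, Rab3a, Snap25 and Cplx1 varied by only 1.07-, 1.08- and 1.09-fold over the 12 animals.

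Proteins of the vesicle itself gave 0 of 6 genes that passed. Syn1, which ties vesicles to the actin cytoskeleton, had medians of 7157 and 7046 and a change of -0.01 ± 0.05. Syn2 had medians of 3462 and 3407 and a change of -0.04 ± 0.03. Sv2a, the target of the drug levetiracetam, had medians of 2265 and 2351, with 4 of 6 exposed animals above every control and 1 below, and a change of 0.03 ± 0.03. Sv2b had medians of 12508 and 12001 and a change of 0.00 ± 0.08. Syn3 and Sv2c changed by -0.04 ± 0.06 and -0.02 ± 0.05.

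The animals did not contribute evenly. Exposed 3 had the lowest value of all 12 animals in 19 of the 61 genes, exposed 6 in 10 and control 2 in 9, while control 6 had it in 0. Exposed 5 was highest in 10 genes. Deviations from the group mean over the 61 genes had an SD of 0.15 to 0.16 in exposed 3, 5 and 6 and of 0.08 to 0.12 in the other animals. The mean log2 level over the 61 genes lay between 9.67 and 9.73 in controls and between 9.64 and 9.69 in exposed animals, so the groups overlap. With control 4 and exposed 3 and 5 left out together, 0 release family genes passed in either direction.

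Several members are measured by more than 1 probe set, and these did not always give the same value. For 22 release family genes, 26 further probe sets above the floor could be set against the brightest, and 0 moved apart from it in limma at an adjusted p under 0.05, while 0.723% of the 5535 such pairs on the array did. At an unadjusted p under 0.05 there were 3, from Sv2b, Rab3a and Vamp4, each with the further probe set lower. The further probe set of Sv2b went from 3915, 4062 and 4356 in controls to 3092, 3665 and 3980 in exposed animals, with 5 of 6 below every control (-0.20 ± 0.06, adjusted p = 0.145). That of Rab3a changed by -0.11 ± 0.04 (adjusted p = 0.282). A further probe set of Stxbp5 had the smallest adjusted p of them all (-0.12 ± 0.03, adjusted p = 0.0846, 5 of 6 below every control), and one of Syn2 changed by -0.12 ± 0.04 (adjusted p = 0.161). These 5 genes were chosen after their values were seen. The array annotation does not tell which transcript form each probe set reads.

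**Figure D4:**
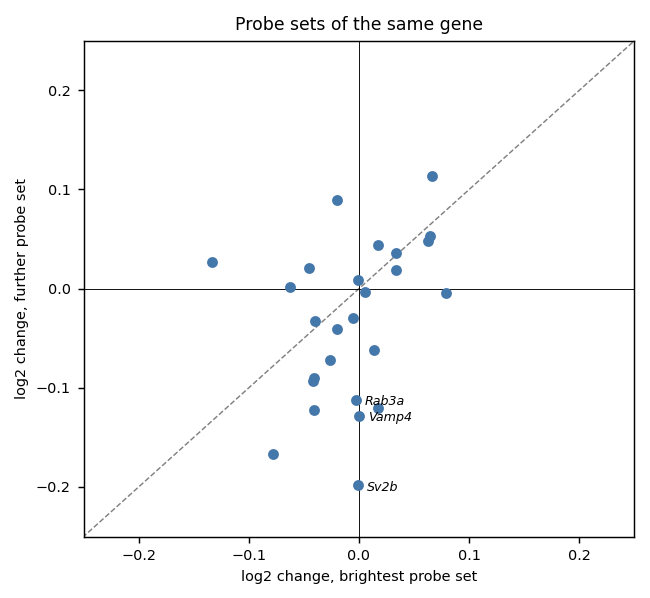
Log2 change, exposed minus control, at the brightest probe set (horizontal axis) and at a further probe set (vertical axis) of the same gene, for 26 pairs from 22 release family genes; the dashed line marks equal changes and names are given where the difference had an unadjusted p under 0.05. In 17 of 26 pairs the further probe set has the lower change, the lowest being Sv2b at -0.20.

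Upstream sequence was examined for the letters that activity-regulated transcription factors are known to bind. RefSeq start sites (build GRCr8) were matched for 51 of the 62 genes, the search was widened from genes that passed to all members after their values were seen, and the 250 bases before the start were searched on both strands. The CREB site TGACGTCA was found in 2 of 51 windows (3.92%), those of Syn1 and Vamp1, and in 1.70% of 27457 windows of all genes. Its core TGACG, which every TGACGTCA contains, was in 15 of 51 (29.4%, against 19.0% of all). The Egr site GCGTGGGCG was in 1 of 51, that of Vamp2 (0.514% of all), and the AP-1 site TGANTCA in 0 of 51 (6.36% of all). These counts cover the release families only. Outside them, the window of Rab34, which also fell and is described below, holds 1 AP-1 match that begins 135 bases before the start. A match is only a description of the letters. The 4 windows below are those with a full CREB or Egr match, none of whose genes passed, and that of Rab3d, which fell and holds none of the 4 motifs; matches are in capitals, and each window is read 5′ to 3′ and ends at the base before the start.
Syn1, chrX:3725495-3725744, plus strand: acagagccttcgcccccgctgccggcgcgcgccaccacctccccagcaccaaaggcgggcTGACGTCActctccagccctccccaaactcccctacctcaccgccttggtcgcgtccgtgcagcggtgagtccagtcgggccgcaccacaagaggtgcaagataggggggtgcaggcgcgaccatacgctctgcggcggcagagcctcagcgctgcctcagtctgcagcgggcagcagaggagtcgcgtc
Vamp1, chr4:159698644-159698893, plus strand: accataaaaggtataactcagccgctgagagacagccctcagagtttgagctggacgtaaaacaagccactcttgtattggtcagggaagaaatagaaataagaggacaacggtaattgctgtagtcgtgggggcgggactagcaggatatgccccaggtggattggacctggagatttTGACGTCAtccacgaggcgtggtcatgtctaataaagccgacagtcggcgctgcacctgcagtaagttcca
Vamp2, chr10:54292539-54292788, plus strand: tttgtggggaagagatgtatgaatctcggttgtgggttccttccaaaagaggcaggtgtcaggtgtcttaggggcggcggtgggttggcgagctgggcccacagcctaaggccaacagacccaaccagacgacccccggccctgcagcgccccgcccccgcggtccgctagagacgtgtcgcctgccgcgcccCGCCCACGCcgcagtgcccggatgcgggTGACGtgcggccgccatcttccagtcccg
Rab3d, chr8:28725268-28725517, minus strand: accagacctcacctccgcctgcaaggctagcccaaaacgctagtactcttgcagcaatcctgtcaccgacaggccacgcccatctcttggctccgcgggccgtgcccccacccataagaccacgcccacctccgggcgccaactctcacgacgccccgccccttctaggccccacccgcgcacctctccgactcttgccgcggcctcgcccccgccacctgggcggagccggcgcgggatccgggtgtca
The match begins 190 bases before the start in Syn1, 71 in Vamp1 and, for Egr, 57 in Vamp2, where a separate TGACG begins at 29. Intensities of Syn1 (6529 to 7232 in controls, 6032 to 7690 in exposed animals) and of Vamp1 (3703 to 4100 against 3574 to 4373) overlap between the groups.

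Partner proteins of the release machinery that the symbol rule does not take were read from 4 lists. Of these partners 1 of 91 rose and 0 fell (median change -0.01), against 2.62% and 0.844% of all genes. The gene that rose was Rimbp2, which codes for a RIM-binding protein that links RIMs to calcium channels at the active zone. It had intensities of 2696, 2839 and 2890 in controls and 2958, 3038 and 3272 in exposed animals, with 6 of 6 exposed animals above every control, a separation that 2.51% of all genes showed in this direction. The change was 0.12 ± 0.03 (adjusted p = 0.0278 in limma). The call was kept in 16 of 27 alternatives and lost, at an adjusted p of 0.0503 to 0.111, in the others, among them the RNA quality covariate (0.111) and the leaving out of control 1, 2, 3 or 4 or exposed 1, 2 or 4.

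In the list of active zone proteins and calcium channels, 1 of 22 rose and 0 fell (2.62% and 0.844% of all genes). Beside Rimbp2, the smallest p values were those of Erc1 (ELKS, 0.08 ± 0.02, adjusted p = 0.129), Cacna1b (the N-type calcium channel, -0.11 ± 0.03, adjusted p = 0.148) and Ppfia1 (a liprin, 0.07 ± 0.03). Among fusion and priming factors 0 of 26 passed, with Rab3gap2, a subunit of the complex that switches Rab3 proteins off, closest at 0.10 ± 0.03 (adjusted p = 0.0826). It passed without control 4 (adjusted p = 0.0406), and Erc1 passed without exposed 4 (0.0492). The other 3 with the smallest p were Sytl2, a synaptotagmin-like Rab27 effector (-0.09 ± 0.04), Cadps, a priming factor of dense-core vesicles (-0.05 ± 0.03), and Dnajc5, a vesicle chaperone (0.04 ± 0.02).

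Among genes of vesicle endocytosis 0 of 22 passed. Dnm3, a dynamin that cuts off endocytic vesicles, went from 538, 556 and 580 to 470, 518 and 535 (-0.13 ± 0.03, adjusted p = 0.0746). In Dnm3 6 of 6 exposed animals lay below every control, a separation that 0.9% of all genes showed in this direction. Cltc, the clathrin heavy chain, changed by 0.06 ± 0.02 (adjusted p = 0.124), and the synaptojanins Synj2 and Synj1, lipid phosphatases that uncoat vesicles, by 0.16 ± 0.06 and 0.11 ± 0.05. Among vesicle membrane proteins and transporters 0 of 21 passed. Sypl1, a relative of synaptophysin, changed by -0.12 ± 0.05, Scamp5 by 0.16 ± 0.07, the glutamate transporter gene Slc17a6 by 0.11 ± 0.05 and Synpr (synaptoporin) by -0.10 ± 0.05. At an unadjusted p under 0.05 in limma there were 13 of the 91 partners (14.3%), near the 15.9% of all genes.

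Of the 14 genes that the rule took from other families, 0 rose and 1 fell, against 2.62% and 0.844% of all genes. Rab34, a GTPase of the Golgi and of cilium formation, went from 956, 1032 and 1085 in controls to 861, 926 and 974 in exposed animals, with 5 of 6 below every control (-0.16 ± 0.03, adjusted p = 0.0298 in limma, exact permutation p = 0.00433). It passed in 14 of 27 alternatives and missed the threshold in 9 of the 12 fits with 1 animal left out: without control 2, 3, 4, 5 or 6 or exposed 1, 2, 4 or 5 its adjusted p was 0.0559 to 0.0695. It was also lost with averaged probe sets (adjusted p = 0.0862 in limma) and with the RNA quality covariate (0.0908). The further probe set of Rab34 gave -0.06 ± 0.04 (adjusted p = 0.701 in limma). Its difference from the brightest did not pass (0.10 ± 0.05, adjusted p = 0.649). Rab37 (-0.14 ± 0.05, adjusted p = 0.256), Rab33b (0.11 ± 0.05, adjusted p = 0.330) and the intermediate filament gene Sync (-0.24 ± 0.10, adjusted p = 0.336) did not pass. The further probe set of Sync had the opposite sign (0.24), and the difference between both did not pass (0.49 ± 0.19, adjusted p = 0.469). For Rab30 the further probe set gave -0.14 against 0.09 (difference -0.23 ± 0.05, adjusted p = 0.0595). Snap91, which acts in synaptic vesicle recycling, had medians of 6791 and 6762 and a change of -0.01 ± 0.02. Rab39a was at the floor on all 12 arrays.

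The forebrain label was checked on marker lists. All 16 neuron markers were above the floor, with a mean log2 level of 12.3 in both groups (SD 0.03 in controls and 0.02 in exposed animals), and 0 passed. By the unadjusted limma p, 5 of 16 lay under 0.05 (31.25%, 4 higher and 1 lower), against 15.9% of all genes. Their median change was 0.03 over all 16. The mean over 6 midbrain and hindbrain markers was 5.93 in controls, near the floor of 5.75. Markers of olfactory bulb and neuroblasts ranged from 8.08 to 8.996 in controls, the highest in control 4, and from 8.18 to 8.23 in exposed animals. Of these markers 1 of 9 fell, against 0.844% of all genes. Their part in the results was not tested.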

How the data were processed

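Forebrain RNA of 12 rats was hybridised to 12 Affymetrix arrays, 1 animal each. The deposited table holds 1 linear intensity per probe set and array; the steps by which the authors made these intensities are not stated in the labels or the file. Array medians lay between 235 and 245, so values were used without further normalization. Intensities were raised to a floor (20th percentile, 53.8) and put on the log2 scale. A group effect was fitted with lmFit and eBayes with trend in limma 3.58.1 (R 4.3.3), with Benjamini-Hochberg over 31042 transcript probe sets. The 57 array control probe sets were left out. Single genes were also compared by exact permutation of the 12 animals; these p-values are given unadjusted, since some genes were named for their small p. The fit was tested on simulated data. The number of arrays limits the precision.

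The members and lists were chosen with earlier results of these data known. Named genes are members that passed, the 12 members with the smallest p, 18 core release genes where measured, members with probe sets that moved apart, up to 4 partners per list, and Fos, Egr1 and Arc; other values are summaries by family. Symbols come from the platform annotation, checked by Entrez ID (0 of 76 changed). Alternatives covered normalization, floor, filter, variance model, array weights, blocks, covariates, probe set choice and leaving out animals.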

Additional observations from a re-analysis of the deposited data

Results flagged for a closer look

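Over 47 genes (94 groups of 6 animals), 10 groups held 1 animal far from the rest by Dixon's test, which sets the gap to the nearest neighbour against the range of the group. About 1 in 20 such groups would be picked by chance. Exposed 3 stood apart in Syt5 (1610, nearest 1983), Rimbp2 (3272, nearest 3074) and Scamp5 (202, nearest 167). Exposed 5 was high in Snap29 (676, nearest 607) and Synj1 (7135, nearest 6167). Exposed 6 was low in Vamp2 (4355, nearest 5440), and exposed 2 was high in Rab3gap2 (876, nearest 830). Among controls, animal 2 was high in Cplx1 (10753, nearest 10325) and low in Ppfia1 (646, nearest 674), and animal 4 was high in Arc (960, nearest 669).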

How the results depend on the processing

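The fit was repeated in 27 alternatives, each with 1 choice changed. No named gene that passed changed direction in any of them. In 1180 values of named genes, 30 lost and 3 gained a call, and 36 values changed sign without passing. The count of release family genes that fell was 1 in the main setting and 0 with the replicate block (Rab3d at -0.31, adjusted p = 0.0826), with the RNA quality covariate and without control 4 and exposed 3 and 5 together; leaving out 1 animal in turn gave 0 to 1. Over all 76 genes the lower count was 2, and it became 1 when the probe sets of each gene were averaged and 0 with the replicate block, the RNA quality covariate or without those 3 animals, and 0 to 2 with 1 animal left out. With the RNA quality covariate 1 of the 76 genes passed as higher, Rab30 (0.20, adjusted p = 0.0350), named after its value was seen. The higher count of partners was 1, and it became 2 with array weights, 0 with median centring, averaged probe sets, the replicate block or the RNA quality covariate, and 0 to 1 with 1 animal left out. The count of further probe sets that moved apart was 0, and 1 with the floor at the 40th percentile and 0 to 1 with 1 animal left out. Taking symbols with a letter before the number too, chosen after seeing the data, left 0 higher and 2 lower. The cause of these differences was not tested. The animal numbers were not taken as pairs, since same-numbered animals correlated at -0.08 to 0.16. Values near the floor, as for Stx17, Sv2c and Syn3, limit what can be said of those genes.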
